A study of Homo sapiens with 9 samples.

Results

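The ERK pathway feedback genes described here are 10 genes, DUSP1, DUSP4, DUSP5, DUSP6, SPRY1, SPRY2, SPRY4, SPRED1, SPRED2 and ETV5, out of 60664 genes in the count tables. They were chosen by name, as genes that growth factor signalling through the kinase ERK is known to induce and most of whose products restrain it; the choice was made with earlier results of these libraries known. The study asked how loss of TTC33 or of CCDC97 affects gene expression. Its 9 libraries of total RNA were made from HEK293 Flp-In T-Rex cells, an embryonic kidney line modified so that a construct can be placed at a fixed site in the genome and switched on with tetracycline.

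The 3 control libraries are from cells of this line that express no microRNA. The 3 CCDC97 knock-down libraries are from cells that express a microRNA against CCDC97 from a tetracycline-inducible promoter, and the 3 TTC33 knock-down libraries are from cells with a microRNA against TTC33 under the same kind of promoter. All 9, controls included, were treated with tetracycline at 100 ng/ml for 3 days. The labels name a single microRNA line per target, and no control microRNA is among the groups. Nothing in the labels says whether the replicates were separate cultures, so a p-value here reflects how far the libraries of a group lay apart, and that spread may be technical.

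ERK is the last kinase of a cascade that runs from growth factor receptors through RAS, RAF and MEK. Active ERK enters the nucleus and switches on genes within minutes to hours, among them genes for proteins that turn the cascade down again. The dual-specificity phosphatases (DUSPs) remove the phosphates that activate ERK and related kinases. Sprouty and SPRED proteins act further upstream, at the receptor, RAS and RAF. ETV5, a transcription factor of the PEA3 group of ETS factors, is part of the output and is often read beside DUSP6 and SPRY4 as a sign of pathway activity.

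Library depth was 21764203 to 36110891 counts in genes, and a member had between 220 and 1632 counts in a library, so counting alone gives a coefficient of variation of at most 6.74%. TTC33 was at 37.8 ± 0.772 CPM (counts scaled to 1e+06 a library, with TMM factors, as mean ± SD, n = 3 libraries here and throughout) in controls and 7.41 ± 1.96 in its knock-down, and CCDC97 at 60.1 ± 0.55 and 15.6 ± 0.283, so each targeted gene was low in the libraries labelled for it. CCDC97 was also higher after TTC33 knock-down, at 80.7 ± 15.4 CPM (log2 fold change 0.43, edgeR adjusted p = 0.0371), a call kept in 2 of 9 fits with 1 library left out. TTC33 was at 43.2 ± 11.8 CPM after CCDC97 knock-down, overlapping with controls. Marker genes of cell types were scaled to CPM without TMM factors. The 7 genes listed as typical of HEK293 summed to 1163 to 1184 CPM in controls, 1042 to 1173 after CCDC97 knock-down and 1244 to 1411 after TTC33 knock-down. VIM was the highest of them at 557 to 841 CPM, and NEFM (0.624 to 1.08) and PAX2 (2.52 to 6.41) were the lowest. The 4 blood markers summed to at most 0.126 CPM with HBB at 0 in all 9 libraries, and 3 endothelial ones to at most 1.14 CPM. Fibroblast markers summed to 14 to 15.1 CPM in controls, 15.8 to 19.2 after CCDC97 knock-down and 12.5 to 16.7 after TTC33 knock-down. COL1A2 was at 0 in 8 libraries and DCN in 5. COL1A1 (5.65 to 10.1 CPM), COL3A1 (2.88 to 7.35) and PDGFRA (2.21 to 3.74) had counts in all 9. The part of these marker levels in the results was not tested. In each knock-down, levels in replicate 1 differed from the other 2 replicates in how they followed the GC content of transcripts. In the tenth of genes with the lowest GC content (median 36.7%), the median log2 difference from control was 0.02 in replicate 1 of the TTC33 knock-down and -0.44 and -0.48 in replicates 2 and 3. For the CCDC97 knock-down these medians were -0.15, 0.16 and 0.15.

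A gene was called where edgeR's quasi-likelihood test over all 9 libraries gave an adjusted p under 0.05, and all 10 members passed the filter on low counts. After TTC33 knock-down 3 of the 10 rose (DUSP6, DUSP1 and ETV5) and none fell. In that comparison 11.9% of the 18299 genes tested were called, 6.5% higher and 5.44% lower. After CCDC97 knock-down 1 of 10 rose (DUSP6) and none fell, where 4.56% of all genes were called, 2.07% higher and 2.49% lower. Between the knock-downs 3 of 10 were higher in the TTC33 libraries (DUSP5, DUSP1 and SPRED2), where 21.5% of all genes were called, 11.3% higher and 10.2% lower. The median log2 fold change of the 10 members was 0.17, 0.01 and -0.02 in these comparisons, and that of all genes tested was 0.00 in each. The RNA is from bulk cultures, so less RNA per cell and fewer cells with the RNA cannot be told apart.

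**Figure D1:**
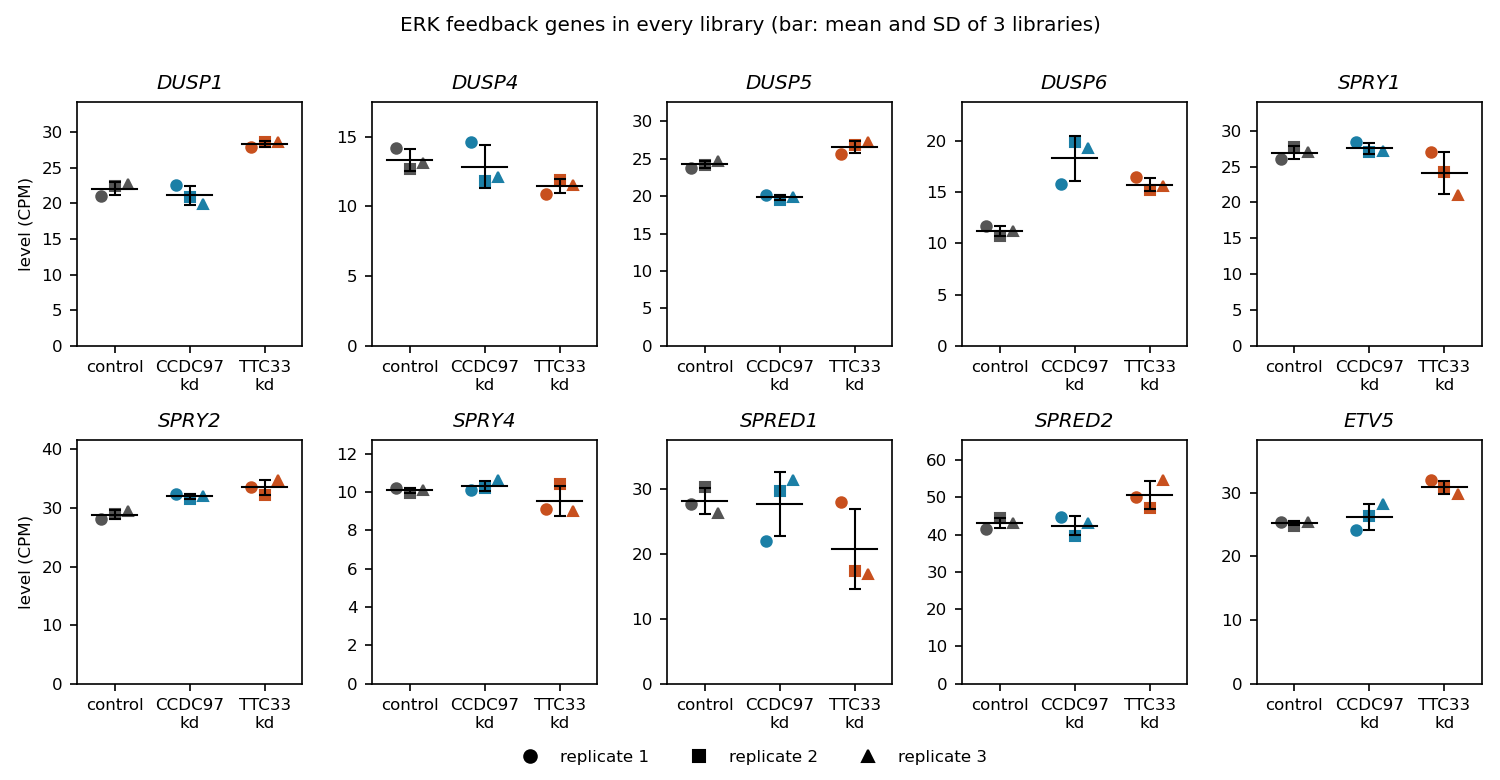
Level of each feedback gene in CPM (vertical axis, from 0) in every library of the 3 groups (horizontal axis); symbols are replicates 1 to 3, the bar is the mean with its SD. DUSP6 was higher in all 6 knock-down libraries (15.2 to 19.9 CPM) than in the controls (10.7 to 11.7), and SPRED1 was spread from 16.9 to 27.9 CPM in the TTC33 knock-down.

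DUSP6 codes for a cytoplasmic phosphatase that acts on ERK in preference to the related kinases JNK and p38. Its gene lies on the reverse strand at chr12:89347232-89353271 (GRCh38), with 3 exons in the coding transcript. It was at 11.7, 10.7 and 11.2 CPM in the control libraries 1 to 3, at 15.8, 19.9 and 19.3 in those of the CCDC97 knock-down, and at 16.5, 15.2 and 15.6 in those of the TTC33 knock-down. All 6 knock-down libraries lay above all 3 controls, and replicate 1 of the CCDC97 knock-down was the lowest of its group. The rise was 1.63-fold after CCDC97 knock-down (0.71 ± 0.10 on the log2 scale, where ± is the SE; edgeR adjusted p = 0.00395) and 1.41-fold after TTC33 knock-down (0.50 ± 0.10; edgeR adjusted p = 0.0131). The knock-downs themselves overlapped in DUSP6, with a difference of -0.21 ± 0.10 (TTC33 minus CCDC97; edgeR adjusted p = 0.15).

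The CCDC97 call on DUSP6 was kept whichever of the 9 libraries was left out (0.64 to 0.80 on the log2 scale, edgeR adjusted p 0.000902 to 0.0345). The TTC33 call was lost without control replicate 1, 2 or 3 (edgeR adjusted p 0.0508, 0.0745 and 0.0598), while the fold change kept between 0.46 and 0.53. The trend fitted over GC content and length moved DUSP6 by -0.03 to 0.03 on the log2 scale in the 6 knock-down libraries, and its fold changes with that trend taken out were 0.70 and 0.51. The antisense gene AC024909.2 shares 1875 exon bases with DUSP6, and the strand setting of the counting is not given in the sources used here. That gene had 4 to 19 counts in a library against 352 to 601 for DUSP6.

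DUSP1, the founding member of the family, is a nuclear phosphatase that acts on p38 and JNK as well as ERK, and is known as an immediate early gene induced by growth factors and stress. It lies at chr5:172768090-172771195 on the reverse strand, with 4 exons. Control libraries held 21.1, 22.4 and 22.8 CPM, CCDC97 knock-down libraries 22.6, 20.9 and 19.9, and TTC33 knock-down libraries 27.9, 28.6 and 28.6. The TTC33 libraries stood above the other 6 and close to each other, and the CCDC97 libraries overlapped with the controls. DUSP1 rose 1.28-fold after TTC33 knock-down (log2 fold change 0.36 ± 0.08; edgeR adjusted p = 0.0179), and was at -0.07 ± 0.08 after CCDC97 knock-down (edgeR adjusted p = 0.698). The difference between the knock-downs was 0.42 ± 0.08 (edgeR adjusted p = 0.00548), and this call was kept without any of the 9 libraries in turn.

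The DUSP1 rise against control was lost without control replicate 1, 2 or 3 (edgeR adjusted p 0.103, 0.0811 and 0.0633) and without TTC33 knock-down replicate 2 or 3 (0.0758 and 0.0772), with fold changes of 0.32 to 0.38 on the log2 scale in all 9 of these fits. The DUSP1 transcript is GC-rich (55.1%), and the trend over GC content and length at DUSP1 was -0.06, 0.13 and 0.16 in TTC33 libraries 1 to 3. With the trend taken out the rise was 0.27 ± 0.06 (edgeR adjusted p = 0.0067). The difference between the knock-downs was then 0.29 ± 0.07 (edgeR adjusted p = 0.00417), against 0.42 without that step.

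The bases just before the start sites of DUSP1 and DUSP6 are shown because these were the members among the phosphatases that rose after TTC33 knock-down, and because their upstream sequences are unlike each other. Each is 250 bases long, 5′ to 3′ on the gene's own strand, from RefSeq (GRCh38.p14), at chr5:172771196-172771445 for DUSP1 and chr12:89352502-89352751 for DUSP6, both on the reverse strand. Capitals mark matches, on either strand, to the letters of 6 motifs: the cyclic AMP response element CRE (TGACGTCA) and its shorter form TGACG, AP-1 (TGANTCA), ETS (CCGGAA), the TATA box (TATAAA), and the CArG box of serum response factor.
DUSP1: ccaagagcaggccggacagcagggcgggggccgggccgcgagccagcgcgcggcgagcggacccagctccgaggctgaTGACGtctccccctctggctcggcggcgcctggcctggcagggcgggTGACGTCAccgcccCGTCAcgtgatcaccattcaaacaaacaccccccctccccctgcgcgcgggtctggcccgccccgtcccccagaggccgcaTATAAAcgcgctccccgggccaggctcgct
DUSP6: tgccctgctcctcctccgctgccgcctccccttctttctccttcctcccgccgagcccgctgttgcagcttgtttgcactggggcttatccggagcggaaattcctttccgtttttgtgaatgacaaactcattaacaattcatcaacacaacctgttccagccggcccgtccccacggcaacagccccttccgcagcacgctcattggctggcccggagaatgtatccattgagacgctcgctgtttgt
The DUSP1 stretch holds a full CRE whose first base is at -125 from the start, the shorter form at -172, -125, -122 and -111 (those at -125 and -122 lie within the full CRE), and a TATA box at -30. Of 35116 promoter windows of 300 bases, 1.85% hold the full CRE, 24.6% the shorter form and 11.5% the TATA letters. The DUSP6 stretch holds none of the 6, which says only that these letters are not in this window. It is also less rich in G and C, at 57.2% against 74.4% for DUSP1, and the window lies inside the longer DUSP6 gene span that GENCODE 29 gives. AP-1 letters were in 7.71% of the windows, ETS letters in 17.2% and the CArG box in 1.29%. The table held windows for 7 of the 10 members, and DUSP4, DUSP5 and ETV5 were not matched.

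DUSP5, a nuclear phosphatase that acts on ERK and holds it in the nucleus, was called between the knock-downs and in neither of them against control. The gene lies on the forward strand at chr10:110497838-110511544, with 4 exons. DUSP5 was at 23.8, 24.2 and 24.7 CPM in controls, 20.2, 19.5 and 19.9 after CCDC97 knock-down and 25.6, 26.8 and 27.2 after TTC33 knock-down. The 3 groups did not overlap, with the CCDC97 libraries lowest and the TTC33 libraries highest. The TTC33 libraries were 1.34-fold above the CCDC97 libraries (log2 difference 0.42 ± 0.07; edgeR adjusted p = 0.00388), a call kept whichever library was left out. Against control the log2 fold changes were -0.29 ± 0.07 for CCDC97 (edgeR adjusted p = 0.0528) and 0.13 ± 0.07 for TTC33 (0.234).

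DUSP5 has the highest transcript GC content of the 10 members (55.9%), and the trend over GC content and length moved with it: -0.14 in replicates 2 and 3 of the CCDC97 knock-down, and 0.15 and 0.18 in replicates 2 and 3 of the TTC33 knock-down, on the log2 scale. In replicate 1 of each knock-down, where the trend at DUSP5 was 0.03 and -0.05, the gene was at -0.26 and 0.08 against the control mean. With the trend taken out, the difference between the knock-downs was 0.24 ± 0.07 (edgeR adjusted p = 0.0127), against 0.42 without that step, and the CCDC97 change was -0.22 (edgeR adjusted p = 0.0336).

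DUSP4 codes for another nuclear phosphatase of ERK and JNK. It lies at chr8:29333064-29350668 on the reverse strand. Its levels were 14.2, 12.7 and 13.1 CPM in controls, 14.6, 11.8 and 12.1 after CCDC97 knock-down and 10.9, 11.9 and 11.5 after TTC33 knock-down. The TTC33 libraries lay below all controls by 0.22 ± 0.10 on the log2 scale, short of the threshold (edgeR adjusted p = 0.166). With the GC content and length trend taken out, DUSP4 passed it, with a log2 fold change of -0.29 ± 0.08 (edgeR adjusted p = 0.0144). Counted within a library, DUSP1 reads were 1.66 ± 0.153 times those of DUSP4 in controls, 1.65 ± 0.119 times after CCDC97 knock-down and 2.48 ± 0.069 times after TTC33 knock-down. Likewise the ratio of DUSP6 to DUSP5 counts was 0.463 ± 0.0278 in controls, 0.923 ± 0.125 after CCDC97 knock-down and 0.596 ± 0.043 after TTC33 knock-down. These pairs were picked without a stated rule. DUSP1 and DUSP4 went in opposite directions after TTC33 knock-down, as did DUSP6 and DUSP5 after CCDC97 knock-down. The ratios thus restate those fold changes and add no support to them.

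**Figure D2:**
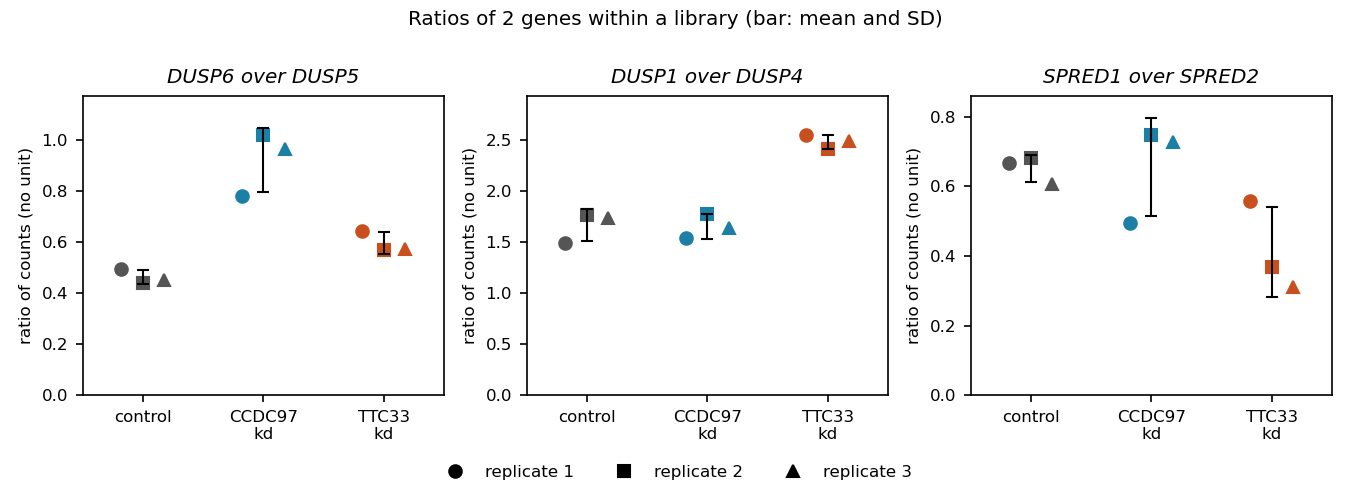
Ratio of the counts of 2 feedback genes within each library (vertical axis, from 0, no unit) by group; symbols are replicates 1 to 3 and the bar is the SD around the mean. DUSP6 over DUSP5 was highest after CCDC97 knock-down (0.781 to 1.02), and DUSP1 over DUSP4 highest after TTC33 knock-down (2.41 to 2.55). SPRED1 over SPRED2 ran from 0.31 to 0.558 after TTC33 knock-down. The pairs were picked without a stated rule, and each ratio restates the changes of its 2 genes.

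None of the 3 Sprouty genes passed the threshold in any comparison. Sprouty proteins are anchored at the cell membrane and block the step from receptor to RAS. SPRY2, at chr13:80335976-80340951 on the reverse strand, had the clearest separation of the 3. Its level was 28.1, 29 and 29.5 CPM in controls, 32.4, 31.5 and 32.0 after CCDC97 knock-down and 33.6, 32.2 and 34.7 after TTC33 knock-down. All 6 knock-down libraries lay above the controls, by 0.15 ± 0.07 on the log2 scale for CCDC97 (edgeR adjusted p = 0.277) and by 0.22 ± 0.07 for TTC33 (0.0709). The latter passed with the GC content and length trend taken out (edgeR adjusted p = 0.00966) and in DESeq2 (0.0379).

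SPRY1, on chromosome 4 (123396795 to 123403760, forward strand), was at 26.0, 27.8 and 27.0 CPM in controls, 28.4, 27.0 and 27.2 after CCDC97 knock-down and 27.0, 24.2 and 21.1 after TTC33 knock-down. Libraries 2 and 3 of the TTC33 knock-down were below every other library, and library 1 was among the controls. SPRY1 thus differed by -0.16 ± 0.09 from control on the log2 scale (edgeR adjusted p = 0.272). With replicate 1 of both knock-downs left out, an alternative added after seeing the data, it differed by -0.25 (edgeR adjusted p = 0.00649). With the GC content and length trend taken out it differed by -0.09 (edgeR adjusted p = 0.39). SPRY4 (chr5:142310427-142326455, reverse strand) was at 9.03 to 10.6 CPM over all 9 libraries. It was at 10.2, 9.96 and 10.1 CPM in controls, with log2 fold changes of 0.03 ± 0.09 after CCDC97 knock-down and -0.08 ± 0.09 after TTC33 knock-down (edgeR adjusted p 0.884 and 0.552).

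SPRED proteins are relatives of Sprouty that bring the RAS-inactivating protein neurofibromin to the membrane. SPRED2 (chr2:65310851-65432637, reverse strand) was at 41.6, 44.4 and 43.2 CPM in controls, 44.6, 39.6 and 43.0 after CCDC97 knock-down and 50, 47.1 and 54.5 after TTC33 knock-down. The TTC33 libraries stood above the other 6, and the CCDC97 libraries overlapped with the controls. SPRED2 was 1.19-fold higher in the TTC33 than in the CCDC97 libraries (log2 difference 0.25 ± 0.08; edgeR adjusted p = 0.0466), and did not pass against control (0.23 ± 0.08; 0.0817). With 1 library left out at a time, the call between the knock-downs was kept without replicate 1 of either knock-down and lost without any other library (edgeR adjusted p up to 0.192). It was also lost with DESeq2's size factors (edgeR adjusted p = 0.0518), with no filter on low counts (0.0838) and with only these 2 groups in the fit (0.131).

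SPRED1 (chr15:38252326-38357249, forward strand) was at 27.7, 30.3 and 26.3 CPM in controls and at 22.0, 29.6 and 31.3 after CCDC97 knock-down. In the TTC33 knock-down it was at 27.9 in library 1 and at 17.4 and 16.9 in libraries 2 and 3, which were the lowest of the 9. Its log2 fold change after TTC33 knock-down was -0.44 ± 0.19 (edgeR adjusted p = 0.143), and without TTC33 knock-down replicate 1 it was -0.71 (0.00136). SPRED1 has the lowest transcript GC content of the members (38.9%), and the trend over GC content and length was 0.10, -0.23 and -0.24 in TTC33 libraries 1 to 3, against differences from the control mean of -0.01, -0.69 and -0.73. With the trend taken out the fold change was -0.29 (edgeR adjusted p = 0.0456). The count ratio of SPRED1 to SPRED2 was 0.652 ± 0.0388 in controls, 0.656 ± 0.141 after CCDC97 knock-down and 0.412 ± 0.13 after TTC33 knock-down. This pair too was picked without a stated rule, and its ratio restates the changes of the 2 genes.

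**Figure D3:**
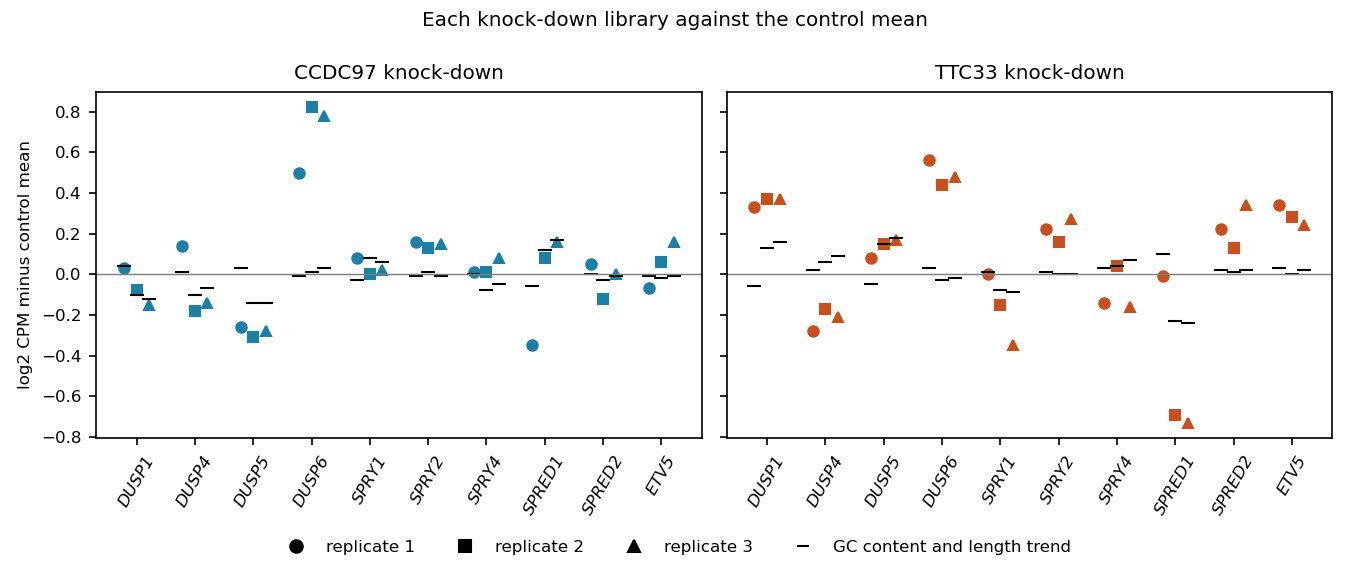
Log2 CPM of each feedback gene minus the control mean (vertical axis) in every knock-down library; symbols are replicates 1 to 3, and dashes give the trend over transcript GC content and length fitted in that library at that gene. For SPRED1 replicates 2 and 3 of the TTC33 knock-down sat at -0.69 and -0.73 and replicate 1 at -0.01, with trends of -0.23, -0.24 and 0.10.

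ETV5, the transcription factor of the set, lies at chr3:186046308-186110318 on the reverse strand and shares 164 exon bases with the neighbouring gene DGKG. ETV5 was at 25.4, 24.8 and 25.4 CPM in controls, 24.1, 26.3 and 28.2 after CCDC97 knock-down and 31.9, 30.7 and 29.8 after TTC33 knock-down. The TTC33 libraries lay above the other 6. ETV5 rose 1.22-fold after TTC33 knock-down (log2 fold change 0.29 ± 0.08; edgeR adjusted p = 0.0417) and was at 0.05 ± 0.08 after CCDC97 knock-down (0.764). The difference between the knock-downs was 0.24 ± 0.08 (edgeR adjusted p = 0.0597). With 1 library left out at a time, the rise was called without replicate 1 of either knock-down and not without any of the other 7 libraries (edgeR adjusted p up to 0.155), with log2 fold changes of 0.26 to 0.30 in all 9 fits. With the GC content and length trend taken out it was 0.27 (edgeR adjusted p = 0.00661), and with no filter on low counts the call was lost (0.127).

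Across the set, 7 of 10 members had TTC33 libraries that did not overlap with the controls (DUSP1, DUSP5, DUSP6, SPRY2, SPRED2 and ETV5 above, DUSP4 below), where 36.8% of all genes did not overlap. For the CCDC97 knock-down 3 of 10 did not overlap with controls (DUSP6 and SPRY2 above, DUSP5 below), where the share of all genes was 29.9%. Between the knock-downs 5 of 10 did not overlap (DUSP1, DUSP5, SPRED2 and ETV5 higher and SPRY1 lower in the TTC33 libraries), against 30.4% of all genes. Both knock-downs were compared with the same 3 control libraries.

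**Figure D4:**
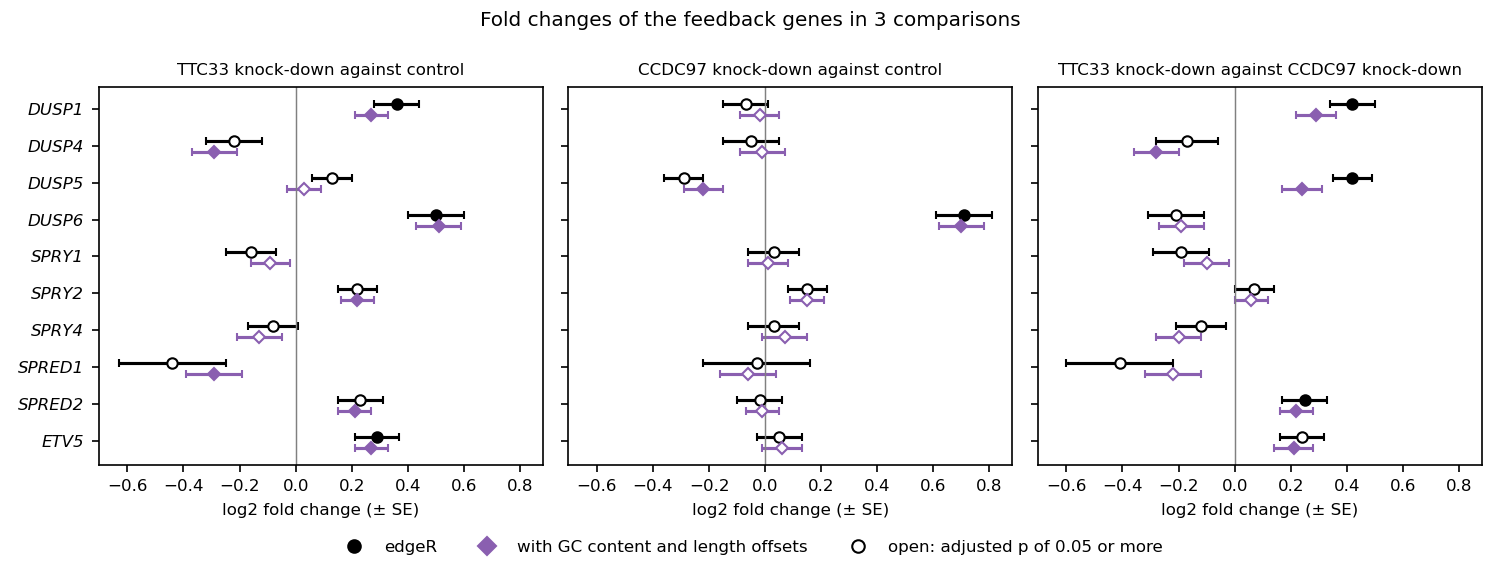
Log2 fold change ± SE (horizontal axis) of each feedback gene in the 3 comparisons, from edgeR (circles) and from edgeR with offsets for GC content and length (diamonds); filled symbols have an adjusted p under 0.05. DUSP6 was at 0.71 after CCDC97 and 0.50 after TTC33 knock-down under the main test, and moved by at most 0.02 with the offsets, while DUSP5 between the knock-downs went from 0.42 to 0.24.

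Per kilobase of annotated exon, DUSP1 was the highest of the 10 in controls at 11.0 ± 0.434 CPM per kb. SPRY2 followed at 9.51 ± 0.235, DUSP5 at 9.26 ± 0.172, SPRED2 at 8.35 ± 0.277 and SPRY1 at 6.79 ± 0.226 CPM per kb. ETV5 was at 4.35 ± 0.0592, SPRED1 at 3.40 ± 0.245, DUSP6 at 2.42 ± 0.114, DUSP4 at 1.84 ± 0.108 and SPRY4 at 1.54 ± 0.0206 CPM per kb. Neighbours in this order did not overlap over the 3 control libraries, apart from SPRY2 and DUSP5. DUSP6 moved from place 8 in controls to place 7 in both knock-downs, where its range overlapped that of SPRED1, now at place 8. In the CCDC97 knock-down SPRY2 (10.5 CPM per kb) and DUSP1 (10.5) shared the top with overlapping ranges, and in the TTC33 knock-down DUSP1 stood alone at 14.0 ± 0.21. The order depends on the length used: with that of the longest annotated transcript, DUSP5 went from place 3 to place 5 in controls, below SPRED2 and SPRY1.

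The cascade upstream of these genes was described from a list. Of its 35 genes from receptors to ERK and its kinase targets, 1 fell and none rose after TTC33 knock-down, 2 rose and 1 fell after CCDC97 knock-down, and 7 were higher and 6 lower in the TTC33 than in the CCDC97 libraries. The shares of the list called were 2.86%, 8.57% and 37.1%, where 11.9%, 4.56% and 21.5% of all genes tested were called. The medians of the list were 0.01, 0.00 and -0.01 on the log2 scale. EGFR, the epidermal growth factor receptor, was at 45.4 ± 0.899 CPM in controls and 30.5 ± 2.68 after CCDC97 knock-down (log2 fold change -0.58 ± 0.09; edgeR adjusted p = 0.00508). PEBP1, an inhibitor of the cascade, rose in the same cells from 303 ± 4.48 to 359 ± 11.9 CPM (0.25 ± 0.06; edgeR adjusted p = 0.0385).

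After TTC33 knock-down the gene of this list that fell was SOS2, a nucleotide exchange factor that activates RAS, from 30.2 ± 1.26 to 22.6 ± 2.54 CPM (-0.42 ± 0.09; edgeR adjusted p = 0.0183). SOS2 also led the genes that differed between the knock-downs, at -0.60 ± 0.09 (edgeR adjusted p = 0.00212). The adaptor GRB2 was 0.31 ± 0.06 higher in the TTC33 than in the CCDC97 libraries (edgeR adjusted p = 0.00736), the scaffold KSR1 0.43 ± 0.11 higher (0.0222) and the MEK gene MAP2K2 0.56 ± 0.14 higher (0.0179). With the GC content and length trend taken out, the differences were smaller, at -0.43 for SOS2, 0.21 for GRB2, 0.22 for KSR1 and 0.25 for MAP2K2. The libraries of the groups overlapped in MAP2K2.

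Among the other phosphatases of MAP kinases, 9 of 12 listed genes were expressed enough to test. After TTC33 knock-down 4 of the 9 rose and 1 fell (median log2 fold change 0.20), after CCDC97 knock-down 1 fell (-0.01), and 4 were higher in the TTC33 than in the CCDC97 libraries (0.29). The shares called were 55.6%, 11.1% and 44.4%, where 11.9%, 4.56% and 21.5% of all genes tested were called. DUSP16, a phosphatase of JNK, rose from 86.3 ± 0.911 to 105 ± 2.51 CPM after TTC33 knock-down (0.28 ± 0.06; edgeR adjusted p = 0.0189). DUSP10, which acts on p38 and JNK, rose from 5.07 ± 0.985 to 8.23 ± 1.44 CPM (0.69 ± 0.16; 0.0237). DUSP8 rose from 10.2 ± 0.542 to 17.2 ± 3.92 CPM (0.76 ± 0.19; 0.0292), and DUSP3 from 102 ± 1.82 to 121 ± 3.59 CPM (0.24 ± 0.06; 0.0286). With the GC content and length trend taken out, the log2 rises of DUSP16, DUSP10, DUSP8 and DUSP3 were 0.27, 0.74, 0.50 and 0.20. DUSP22 fell in both knock-downs, from 36.8 ± 0.37 CPM to 28.8 ± 1.75 for TTC33 (edgeR adjusted p = 0.0144) and 29.9 ± 0.376 for CCDC97 (0.0448).

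Of the 4 further family members SPRY3, SPRED3, ETV1 and ETV4, 1 rose and 1 fell after TTC33 knock-down and none was called after CCDC97 knock-down (medians 0.03 and 0.08). Of all genes tested, 11.9% and 4.56% were called in these comparisons. SPRED3 rose from 3.27 ± 0.531 to 5.56 ± 0.91 CPM (log2 fold change 0.76 ± 0.18; edgeR adjusted p = 0.0243). ETV1, a PEA3 factor like ETV5, fell from 17.4 ± 0.689 to 10.5 ± 2.59 CPM (-0.72 ± 0.17; edgeR adjusted p = 0.0222). With the GC content and length trend taken out, SPRED3 was at 0.58 and ETV1 at -0.52. The PEA3 factors ETV5 and ETV1 were therefore called in different directions in the TTC33 knock-down, and ETV4 was at -0.23 (edgeR adjusted p = 0.217).

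The list of other genes tied to ERK output held 25 genes, 24 of them tested. Besides genes known to be induced through ERK it held the transcription factors CIC, ELK1, ELK3 and SRF. Its counts and shares are therefore not those of output genes alone. After TTC33 knock-down 4 rose and 3 fell (median 0.26), after CCDC97 knock-down 2 rose (0.12), and between the knock-downs 6 were higher and 6 lower in the TTC33 libraries (0.06). The shares called were 29.2%, 8.33% and 50%, where 11.9%, 4.56% and 21.5% of all genes tested were called. EGR1, an immediate early transcription factor, rose from 7.09 ± 0.357 to 17.8 ± 2.71 CPM after TTC33 knock-down (log2 fold change 1.33 ± 0.14; edgeR adjusted p = 0.000342). In the same cells ELK3, an ETS factor that ERK phosphorylates, fell from 33.0 ± 1.62 to 13.4 ± 1.42 CPM (-1.30 ± 0.09; edgeR adjusted p = 1.69e-05). CCND1, which codes for cyclin D1, fell from 147 ± 2.48 to 108 ± 3.15 CPM (-0.45 ± 0.07; 0.00329), and MYC from 143 ± 3.57 to 89.3 ± 12 CPM (-0.68 ± 0.12; 0.00606). EPHA4, a receptor tyrosine kinase, rose in both knock-downs, from 56.0 ± 1.45 CPM to 75.7 ± 1.42 for TTC33 (edgeR adjusted p = 0.0039) and 75.6 ± 4.89 for CCDC97 (0.0068). TRIB1, a pseudokinase that binds MEK, rose after CCDC97 knock-down from 68.4 ± 1.3 to 87.8 ± 6.94 CPM (0.36 ± 0.08; 0.0351), and was 0.41 ± 0.08 lower in the TTC33 than in the CCDC97 libraries (0.0081).

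With 1 library left out at a time, the calls on EGFR after CCDC97 knock-down, on EGR1, ELK3, CCND1, MYC and EPHA4 after TTC33 knock-down, and on SOS2, GRB2 and TRIB1 between the knock-downs were kept in all 9 fits. The TTC33 calls on SOS2, DUSP16, DUSP8, ETV1 and SPRED3 were lost without any of the 3 controls or without TTC33 replicate 2 or 3, that on DUSP3 also without CCDC97 replicate 3, that on DUSP22 without any control, and that on DUSP10 without control replicate 1 or 3 or TTC33 replicate 3. The CCDC97 calls on PEBP1 and DUSP22 were kept only without replicate 1 of either knock-down, that on TRIB1 was lost without any control, CCDC97 replicate 3 or TTC33 replicate 2, and that on EPHA4 without control replicate 1 or 2. Between the knock-downs, KSR1 and MAP2K2 lost their calls without replicate 2 or 3 of either knock-down.

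For the 4 members with the smallest adjusted p, the genes whose pattern over the 9 libraries was most alike were found among the 11347 named genes that averaged 5 CPM or more. Likeness was the root mean square (RMS) difference of log2 CPM, each gene centred on its control mean. The nearest to DUSP6 was RARB, a retinoic acid receptor, at an RMS difference of 0.0906, followed by LINC01963 (0.113) and TNFRSF10D (0.128). RARB was 0.80 and 0.44 above control in the CCDC97 and TTC33 knock-downs on the log2 scale, where DUSP6 was 0.70 and 0.49. DUSP6 had no neighbour as near as those of the other 3. Their nearest were DOCK4 for ETV5 (0.0243), JMJD6 for DUSP1 (0.0382) and RIMS4 for DUSP5 (0.0386). The measure was not scaled to the size of a gene's changes, which were largest for DUSP6 among these 4 members. Its larger distances therefore need not be particular to its pattern. Further down were HSPH1 (0.0419) and TOP1 (0.0459) for ETV5, MADD (0.048) and TGFBRAP1 (0.0502) for DUSP1, and DLST (0.0414) and UHRF1 (0.0487) for DUSP5.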

How the data were processed

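Total RNA of 9 libraries was sequenced in 3 groups of 3, taken from the labels. The authors deposited unnormalized whole-number counts of reads for each gene. The submitters' processing notes name Trimmomatic 0.39 for trimming, HISAT2 for alignment and HTSeq 2.0.1 for counting on GRCh38. No annotation release or strand setting is given in the sources used here. Samples come with a table marked R12, used here, and another marked U, which no source explains and which held 6.55% to 11.9% of the summed counts. Rows that name no gene held 33.4% to 57.9% of R12 counts and were left out.

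edgeR 4.0.16 (R 4.3.3) was run over all 9 libraries: filterByExpr (18299 genes kept), TMM factors, a term per group, 6 residual degrees of freedom, two-sided quasi-likelihood tests, Benjamini-Hochberg adjustment over all genes tested, threshold 0.05. On simulated counts for the TTC33 comparison (17900 genes), 100% of 200 genes changed 2-fold were recovered, and 3.38% of calls were false. The simulated counts had the same spread for all genes and no differences in GC content dependence between replicates. These rates therefore need not hold for the smaller changes called here. Per-library log2 CPM has a prior count of 2. GC content and length trends were smooth fits per library (mgcv 1.9.3) over 18042 genes (98.6%) and were used as offsets in an alternative. Other alternatives changed the scaling, the filter, the test (DESeq2 1.42.0), the counts, the groups in the fit and the libraries, 1 at a time. Coordinates and exon lengths are from GENCODE 29.

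The members and the 4 companion lists were chosen with earlier results of these data known. Named from each companion list were up to 4 called genes with the smallest adjusted p in a comparison, and for up to 4 called members the 3 genes nearest in pattern. The values of 1 called gene of these lists are not reported here.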

Additional observations from a re-analysis of the deposited data

Results flagged for a closer look

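For 3 of the 10 feedback genes the response to the TTC33 knock-down differed from that to the CCDC97 knock-down by a test of the difference itself (edgeR, TTC33 against CCDC97 libraries). The difference was 0.42 on the log2 scale for DUSP1 (edgeR adjusted p = 0.00548), with all 3 TTC33 libraries above all 3 CCDC97 libraries. DUSP5 also differed by 0.42 (edgeR adjusted p = 0.00388), again with all 3 TTC33 libraries higher. SPRED2 differed by 0.25 (edgeR adjusted p = 0.0466), with all 3 TTC33 libraries higher. The SPRED2 call was kept in 2 of 9 fits with 1 library left out, and those on DUSP1 and DUSP5 in all 9. With GC content and length offsets the differences of DUSP1, DUSP5 and SPRED2 were 0.29, 0.24 and 0.22. In this comparison 21.5% of all genes tested were called. What sets these responses apart was not tested.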

How the results depend on the processing

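Of the 7 calls on members, none changed direction in 140 alternative fits, 110 kept their call and 30 lost it. The 3 members called after TTC33 knock-down, all higher, became 7 with GC content and length offsets (5 higher, 2 lower). They became 6 with these offsets and a replicate block (5 higher, 1 lower) and 0 with the replicate block alone. With replicate 1 of both knock-downs left out (added after seeing the data) they became 8 (6 higher, 2 lower). With no filter on low counts there were 3 (2 higher, 1 lower). Leaving out each library in turn gave 0 to 7: 0 without control replicate 1, 2 or 3, 1 without TTC33 replicate 2 or 3, and 7 without TTC33 replicate 1 (5 higher, 2 lower). For the CCDC97 knock-down the 1 call became 2 in some fits, with DUSP5 added as lower. This was so with the 5 CPM filter, the offsets, only the 2 groups, DESeq2 or replicate 1 of both knock-downs left out. Without a library there were 1 to 2 calls (2 without replicate 1 of either knock-down). Between the knock-downs the 3 calls, all higher in the TTC33 libraries, became 5 with offsets, with or without the block (4 higher, 1 lower). They became 6 without both replicates 1 (3 higher, 3 lower). Without a library there were 2 to 5, with 5 without replicate 1 of either knock-down (3 higher, 2 lower).

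Over all genes, the 2186 calls for TTC33 became 3821 with no filter, 756 with the replicate block, 5030 with offsets, 4628 with both, 9129 without both replicates 1, and 552 to 6512 without a library. The 835 for CCDC97 became 1369, 240, 3495, 3105 and 6675 in the same order, 1339 with only the 2 groups, 1471 in DESeq2, and 203 to 1981 without a library. The 3943 between the knock-downs became 1857 with the block, 1479 with only the 2 groups, 10362 without both replicates 1, and 1528 to 7767 without a library. Fits without a library or with a block had fewer libraries or degrees of freedom. The numbers fell in many of these fits and rose in others, as to 6512 for TTC33 without TTC33 replicate 1. What moved the numbers was not tested. Whether the numbers pair the libraries is not known. Deviations of same-numbered libraries correlated at -0.0304 to 0.0936 between controls and knock-downs, and at -0.504, -0.114 and -0.139 between the knock-downs. Among the controls, each TTC33 library correlated best with that of its own number (0.0729, 0.0401 and 0.0677). So did CCDC97 replicate 2 (0.0936), while CCDC97 replicates 1 (-0.0304) and 3 (0.0125) did not. These low values do not settle the question.

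Changes of sign were seen only for uncalled changes near 0 after CCDC97 knock-down: DUSP4 (-0.16 to 0.00042 without a library) at 0.00042 without CCDC97 replicate 2, SPRED1 (-0.12 to 0.11 without a library) at 0.03 without control replicate 2 and 0.11 without CCDC97 replicate 1 or both replicates 1, SPRED2 (-0.06 to 0.02) at 0.00093 and 0.02 without control and CCDC97 replicate 2, and ETV5 at -0.01 without CCDC97 replicate 3.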

Other observations

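The smaller count tables marked U, which entered the comparisons only as an alternative that summed both tables, held 12 to 205 counts of a member in a library. Levels in those tables were scaled to CPM within them, without TMM factors. DUSP6 was at 11.3 ± 2.19 (SD, n = 3) in controls, 13.5 ± 3.13 after CCDC97 knock-down and 14.1 ± 3.23 after TTC33 knock-down, with overlapping libraries. DUSP1 was at 19.1 ± 4.33, 16.2 ± 1.51 and 25.0 ± 1.82 CPM in the same groups, and DUSP5 at 21.0 ± 1.83, 16.5 ± 2.09 and 23.3 ± 2.88 CPM. SPRED2 was at 43.3 ± 2.11, 33.7 ± 4.66 and 46.5 ± 3.7 CPM. All 3 CCDC97 libraries (29.2 to 38.5) were below the controls (42.0 to 45.7), whereas they overlapped in the main tables, which were scaled with TMM factors. Those factors were 0.9527 and 0.9504 in CCDC97 replicates 2 and 3 and 1.009 to 1.027 in controls. The part of this unlike scaling in the contrast was not tested. These values were not tested.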
